A study of Homo sapiens with 6 samples.

Results

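The p53 pathway genes described here are 34 named targets and regulators of the transcription factor p53. They were chosen by name, with earlier results of these data known. Of these, 32 had a row in the table of 21631 gene symbols. SPATA18 and TIGAR-AS1 had none and are not analysed here. All 32 passed the filter on low counts and were tested among 16910 genes. The 6 RNA-seq libraries came from A-375, a long-established human melanoma cell line with mutant BRAF. A control guide (sgCTRL) was carried by 3 libraries and a guide against SEPHS2 (sgSEPHS2) by the other 3, with no further treatment, time or clone given in the labels. Pools and single clones therefore cannot be told apart, nor can an effect of the guide and a difference between founding cells. The labels do not say whether the libraries of a group came from separate cultures, and the p-values therefore reflect only library-to-library spread, which may be technical.

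In the unstressed cell, p53 is kept low because MDM2 tags it for degradation and MDM4 blocks its activity. Damage, nutrient stress or defects in ribosome assembly release it. It then switches on genes that stop the cell cycle, repair DNA, alter metabolism or open the way to apoptosis, and also MDM2 itself, which closes a feedback loop.

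Library depth ranged from 34606145 to 43405579 counted reads. SEPHS2, which makes the selenium donor for selenocysteine, was not lower in the libraries labelled knockout, with 156 ± 3.32 CPM (counts per 1000000 library reads, SD, n = 3) against 173 ± 3.85 (log2 fold change 0.15, edgeR adjusted p = 0.00401). A gene-level count does not show whether the reading frame was cut, so every direction below rests on the labels. Of the melanoma line markers, 3 of 12 tested rose, 4 fell and 5 did not pass, where 45.4% of all tested genes passed. NGFR rose from 6.12 to 24.1 CPM (log2 fold change 1.97), AXL by 0.42 and VIM by 0.23, while EGFR had -0.93, SOX9 -0.74, MITF -0.35 and SOX10 -0.12, the last from 619 to 569 CPM. S100B stood at 33.9 and 33.1 CPM in the control and labelled knockout groups, and the pigment genes TYR, DCT and TYRP1 had at most 28 reads per group. Summed leukocyte markers were 3.46 to 4.21 CPM in the control libraries and 6.43 to 7.15 in the others, nearly all of it LYZ, with PTPRC at 16 and 1 reads. Summed fibroblast markers were 73.2 to 74.9 and 48.3 to 54.6 CPM, epithelial markers 40 to 43.7 and 43.7 to 51, and endothelial markers 9.69 to 10.2 and 8.08 to 9.15. PDGFRB made most of the fibroblast sum (means 52.5 and 28.9 CPM), and CLDN4 nearly all of the epithelial sum (39.8 and 45.1 CPM). Of the 6 fibroblast markers, 1 rose (LUM) and 3 fell. The part of these markers in the results was not tested.

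More p53 pathway members were higher than lower in the libraries labelled knockout, by modest amounts. Of 32 tested members, 16 rose, 4 fell and 12 did not pass (edgeR quasi-likelihood test, Benjamini-Hochberg adjusted p under 0.05 over all tested genes). The background was wide: 45.4% of all tested genes passed, 22.0% higher and 23.4% lower. The median log2 fold change of the members was 0.17, beside 0.01 over all tested genes. No test was run over the list, because it was chosen with earlier results known. The cell cycle inhibitor CDKN1A, the kinase PLK2, the stress cytokine GDF15 and TRIM22 rose at least 1.5-fold, where 3.60% of all tested genes did. AEN, a nuclease of the apoptotic program, and TP53I11 fell at least 1.5-fold, where 9.07% did. That share includes 210 genes whose counts are identical to each other (log2 fold change -2.20). The groups did not overlap for the 20 members called, 16 higher and 4 lower, and overlapped for the other 12. Over all tested genes 52.1% did not overlap.

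**Figure D1:**
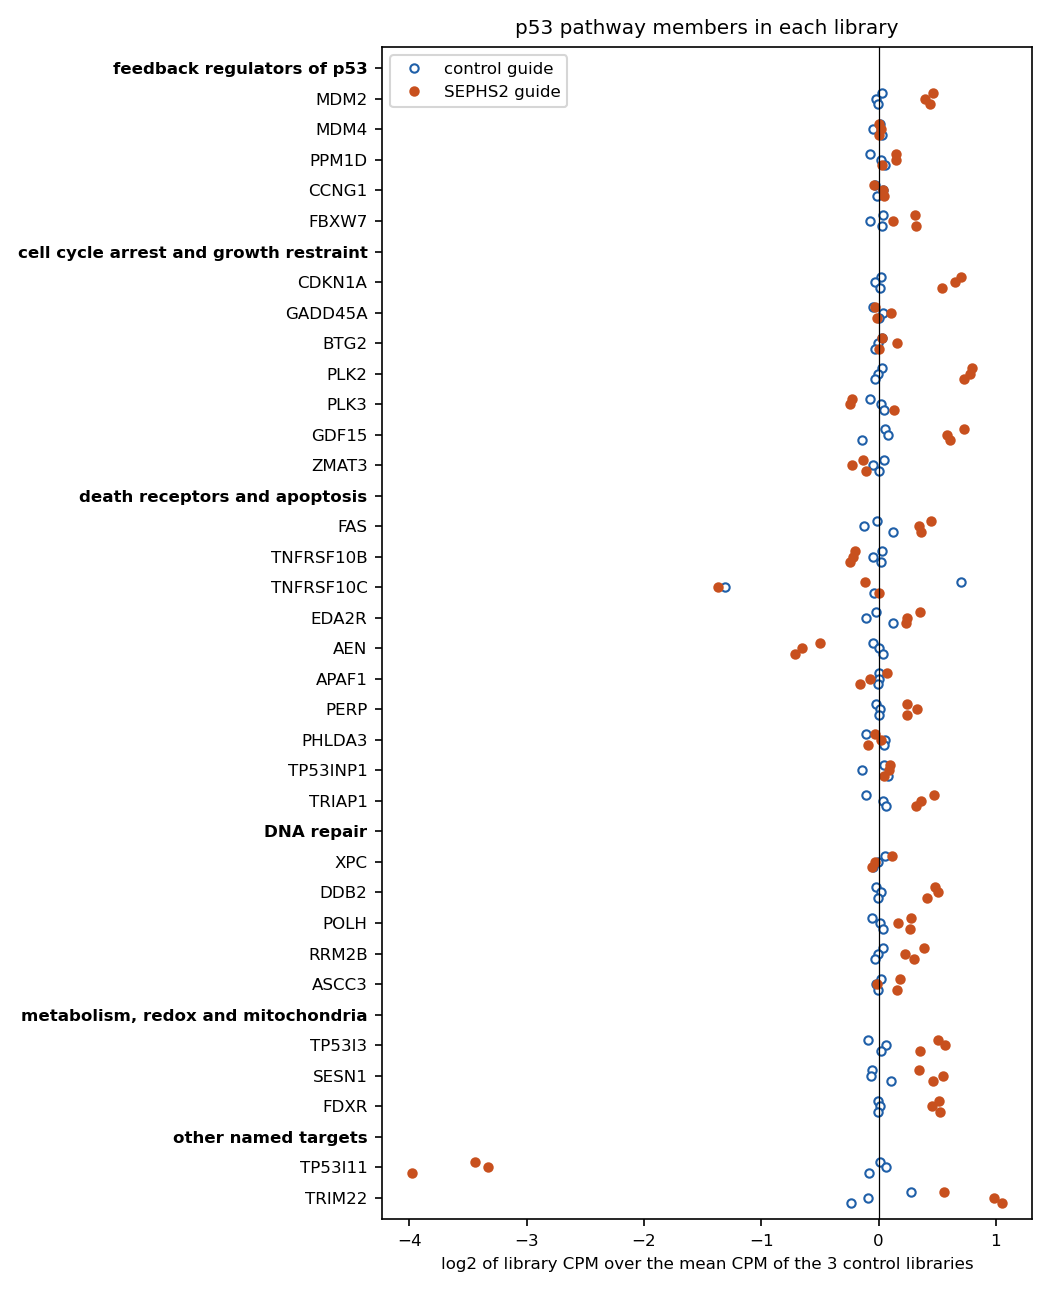
Each point is 1 library, placed on the log2 scale of its CPM over the mean of the 3 control libraries (open, control guide; filled, SEPHS2 guide), with members grouped by role. The filled points of MDM2, CDKN1A, PLK2, GDF15 and DDB2 lie to the right of all open points, those of AEN and TP53I11 to the left, and those of MDM4, CCNG1 and XPC overlap the open ones.

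Promoters were searched for the p53 response element in 1 form: 2 abutting motifs of 10 bases, each with C at base 4 and G at base 7. RefSeq promoters (GRCh38.p14, 250 bases before to 50 after the start) were given for 25 of the 34 members. The consensus reads the same on both strands. With at most 2 mismatches at the other positions, 1 of 25 member promoters held it (4%), against 0.271% of all 27305 promoters. With at most 3, chosen after the data were seen, 3 held it (12%, against 1.05%). For 48 promoters of the further p53 targets described below, the shares were 4.17% and 14.6%, so the members do not stand apart from other targets. The 3 member sites are shown because their genes moved in opposite directions, AEN lower and FDXR and GDF15 higher. Capitals mark the fixed C and G.
AEN: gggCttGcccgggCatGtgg
FDXR: gggCagGagcgggCttGccc
GDF15: agcCatGcccgggCaaGaac
The AEN site lies at chr15:88621306-88621325 on the plus strand, and has 2 mismatches. Its first base is 34 bases before the transcript start at 88621340 used for the RefSeq promoter, which lies inside the RefSeq gene span, so another transcript of AEN starts upstream of the site. The FDXR site lies at chr17:74872996-74873015 on the minus strand, 21 bases before the transcript start, with 3 mismatches. The GDF15 site lies at chr19:18386186-18386205 on the plus strand, from base 29 of the transcript, with 3 mismatches. A match describes letters only, and p53 sites further away, inside introns or with a gap between the motifs were not searched.

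Among the regulators that feed back on p53, MDM2 and FBXW7 rose, and MDM4, PPM1D and CCNG1 did not pass. The 40% that passed stood beside 45.4% of all tested genes, of which 22.0% were higher and 23.4% lower. MDM2, the ubiquitin ligase that degrades p53 and is itself a p53 target (chr12:68808172-68850686, GRCh38.p14, protein-coding), had 118, 113 and 115 CPM in the control libraries and 160, 152 and 156 in the labelled knockout libraries. Every labelled knockout library stood above every control. The log2 fold change was 0.43, SE 0.04 (edgeR adjusted p = 2.37e-08). MDM2 shares 133 exon bases with the gene CPM, which lies on the other strand, had 1278 reads over all libraries against 32550 for MDM2, and fell. FBXW7, the substrate receptor of a ubiquitin ligase for cyclin E and MYC, had 21.2, 19.6 and 21 CPM in the controls and 25.5, 22.4 and 25.7 in the others (log2 fold change 0.25, SE 0.07, edgeR adjusted p = 0.00362).

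MDM4, the relative of MDM2 that binds and silences p53 (chr1:204516406-204558120), had 93.5, 89.7 and 94.6 CPM in the controls and 93, 93.7 and 92.6 in the others. The groups overlapped, and the 95% interval of the log2 fold change was -0.08 to 0.10 around 0.01 (edgeR adjusted p = 0.902). PPM1D, the phosphatase WIP1 that reverses p53 phosphorylation (chr17:60600193-60666280), had 36.9, 39.3 and 40.2 CPM against 43.1, 43.1 and 39.6. The third labelled knockout library lay among the controls. The difference was 0.11 on the log2 scale, SE 0.05 (edgeR adjusted p = 0.104). Without that library it was 0.15 (edgeR adjusted p = 0.0417). Leaving out any other single library gave no call (edgeR adjusted p = 0.0942 to 0.37). CCNG1, cyclin G1, a p53 target that recruits a phosphatase to MDM2, was the most abundant member per length, at 103 CPM per kilobase of exon in the controls. It had 313, 328 and 317 CPM in the controls and 311, 328 and 331 in the others (log2 fold change 0.02, SE 0.04, edgeR adjusted p = 0.782). Once a trend in exon length and GC content was removed, CCNG1 had -0.11 (edgeR adjusted p = 0.0206).

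Of 7 genes for cell cycle arrest and growth restraint, 3 rose, 1 fell and 3 did not pass. The 57.1% that passed stood beside 45.4% of all tested genes. CDKN1A (chr6:36676463-36687332, protein-coding) encodes p21, the inhibitor of cyclin-dependent kinases that carries p53-dependent arrest. It had 2278, 2160 and 2147 reads in the controls and 2966, 3608 and 3142 in the labelled knockout libraries, or 54.1, 52.3 and 53.8 CPM against 86.9, 83.8 and 77.5. Every labelled knockout library was above every control (log2 fold change 0.63, SE 0.05, edgeR adjusted p = 1.01e-09).

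PLK2, a polo-like kinase of the centrosome and of stress responses (chr5:58453982-58460086), had 151, 147 and 145 CPM in the controls and 256, 254 and 245 in the others. The 2 groups were far apart compared with the spread inside them, with a 1.71-fold difference (log2 fold change 0.77, SE 0.04, edgeR adjusted p = 2.13e-12). The rise of PLK2 stood at percentile 97.1 of all tested genes. GDF15, a secreted stress hormone of the TGF-beta family (chr19:18386158-18389176), had 251, 250 and 207 reads in the controls and 324, 369 and 355 in the others, or 5.96, 6.05 and 5.19 CPM against 9.49, 8.57 and 8.76. Its rise was 0.64 on the log2 scale with an SE of 0.11 (edgeR adjusted p = 4.03e-05), close in size to CDKN1A but with a wider error.

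ZMAT3, a zinc finger RNA-binding protein that regulates splicing, had 71.6, 67.4 and 69.5 CPM in the controls and 63.5, 59.6 and 64.5 in the others. Its fall was small (-0.15 on the log2 scale, SE 0.05, edgeR adjusted p = 0.0117). The call was lost without control replicate 1 (edgeR adjusted p = 0.0612) or labelled knockout replicate 2 (edgeR adjusted p = 0.0747). The damage-response gene GADD45A and the antiproliferative gene BTG2, both early p53 targets, had log2 fold changes of 0.02 and 0.07, with 95% intervals of -0.10 to 0.14 and -0.10 to 0.24. PLK3, a stress-responsive kinase, had -0.10, with a wider interval of -0.35 to 0.15 at a level near 6 CPM. For these 3 genes the groups overlapped (edgeR adjusted p = 0.802, 0.516 and 0.545).

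Of the 10 genes of death receptors and apoptosis, 4 rose, 2 fell and 4 did not pass. Their median on the log2 scale was 0.02. Among all tested genes 22.0% rose and 23.4% fell. Of the death receptors, FAS rose and TNFRSF10B fell. FAS, the receptor for FAS ligand (chr10:88964050-89017059), had 20.1, 18.6 and 22.1 CPM in the controls and 27.6, 25.7 and 26 in the others (log2 fold change 0.38, SE 0.07, edgeR adjusted p = 7.32e-05). It shares 380 exon bases with ACTA2 on the other strand, which stood at 3.98 ± 0.613 and 5.79 ± 0.716 CPM (SD, n = 3 per group) and rose. Over all libraries ACTA2 had 1174 reads against 5601 for FAS, so the FAS value is less certain. TNFRSF10B, the TRAIL receptor DR5 (chr8:23020133-23069031), had 154, 146 and 153 CPM in the controls and 131, 130 and 127 in the others. The fall was 0.857-fold (log2 fold change -0.22, SE 0.04, edgeR adjusted p = 1.53e-04).

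TNFRSF10C, a decoy TRAIL receptor without a signalling domain, was near the limit of detection, with 37, 9 and 21 reads in the controls and 17, 9 and 22 in the others. Its 95% interval ran from -1.38 to 0.60, so a difference was not detectable at this depth (edgeR adjusted p = 0.542). EDA2R, a receptor for an ectodysplasin form, had 10.3, 9.71 and 11.4 CPM against 13.4, 12.4 and 12.3. It rose by a log2 fold change of 0.28 (edgeR adjusted p = 0.0108). That call did not hold without control replicate 2 (0.23, edgeR adjusted p = 0.0685).

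AEN, an exonuclease that degrades DNA in p53-driven apoptosis (chr15:88604683-88632281), had 4711, 4777 and 4729 reads in the controls and 2780, 3161 and 2858 in the others. In CPM this was 112, 116 and 118 against 81.4, 73.4 and 70.5, with no overlap. The log2 fold change was -0.62, SE 0.05 (edgeR adjusted p = 2.15e-09), at percentile 10 of all tested genes. AEN is also the member whose promoter held the p53 element with at most 2 mismatches.

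PERP, a membrane protein of desmosomes and apoptosis, rose from 66.7, 68.1 and 67.9 CPM to 79.8, 85 and 79.9 (log2 fold change 0.27, SE 0.04, edgeR adjusted p = 3.75e-05). TRIAP1, a small mitochondrial lipid-transfer chaperone that opposes apoptosis, rose from 32.2, 35.6 and 36.3 to 48.3, 44.7 and 43.4 CPM (0.39, SE 0.06, edgeR adjusted p = 1.09e-05). The caspase-activating scaffold APAF1 had -0.05 (95% interval -0.17 to 0.07), the AKT inhibitor PHLDA3 -0.03 (-0.15 to 0.08) and the autophagy and stress gene TP53INP1 0.08 (-0.06 to 0.22). None of these 3 passed with edgeR (adjusted p = 0.491, 0.681 and 0.356).

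**Figure D2:**
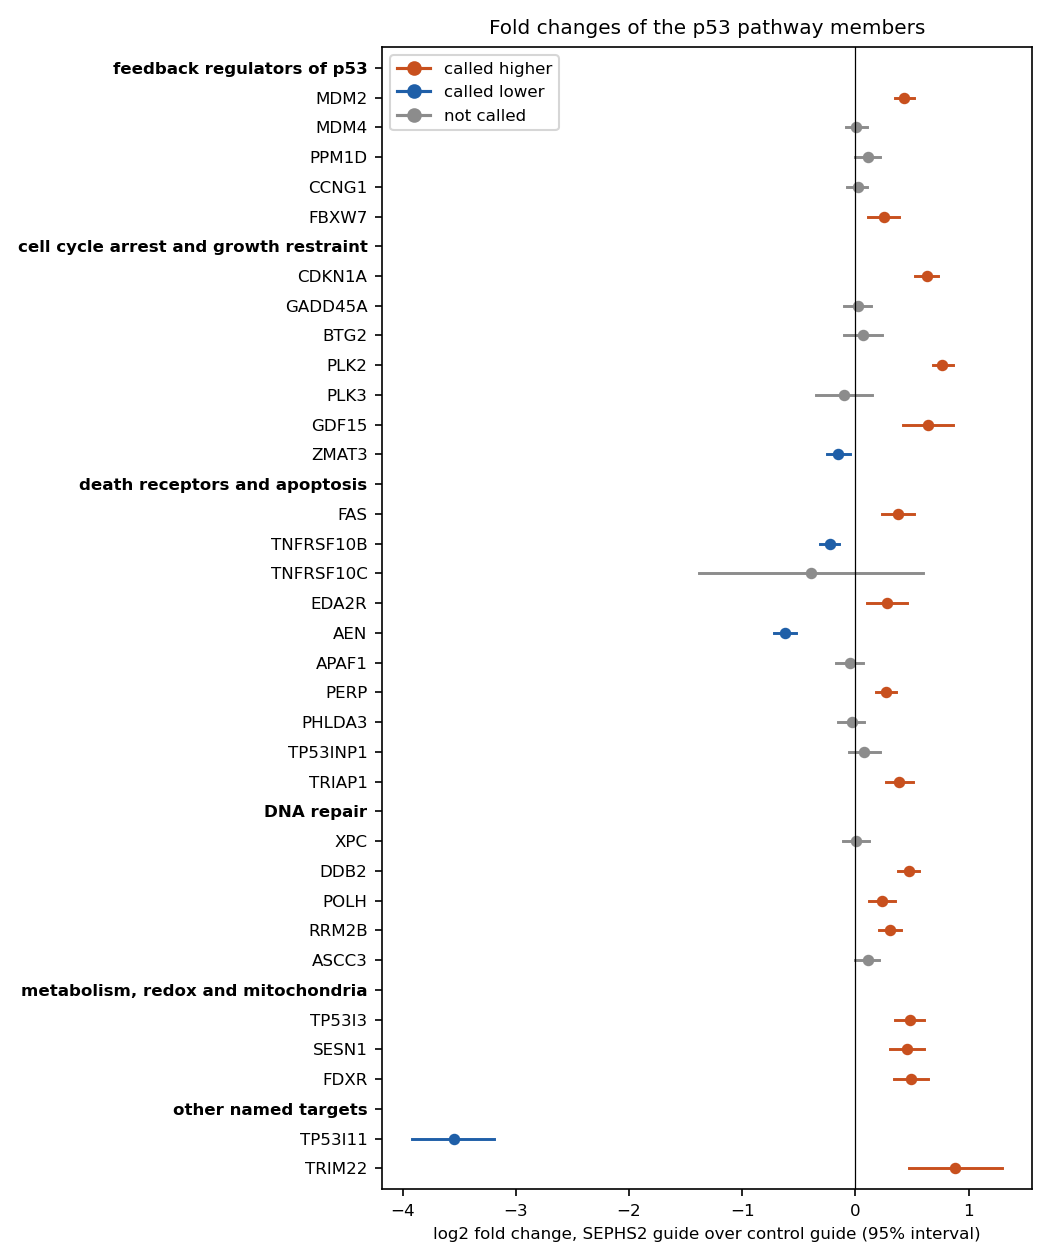
Points give the log2 fold change of each member, SEPHS2 guide over control guide, and lines its 95% interval from the edgeR fit (n = 3 per group). Most called members lie between 0.24 and 0.88, AEN lies at -0.62 and TP53I11 far to the left at -3.55, while TNFRSF10C has the widest interval.

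Of 5 DNA repair members, 3 rose and 2 did not pass, where 22.0% of all tested genes rose. DDB2, the damage sensor that starts repair of ultraviolet lesions (chr11:47214454-47239217), had 66.5, 68.5 and 67.4 CPM in the controls and 94, 95.9 and 89.9 in the others. The groups were well apart (log2 fold change 0.47, SE 0.04, edgeR adjusted p = 2.09e-08). RRM2B, the p53-inducible small subunit of ribonucleotide reductase (chr8:102204501-102238961), rose from 99.5, 96.6 and 95 CPM to 127, 114 and 120.0 (0.31, SE 0.05, edgeR adjusted p = 1.26e-05). POLH, the polymerase that copies past ultraviolet lesions, rose from 27.3, 28.7 and 29.2 to 34.4, 31.8 and 34.2 CPM (0.24, SE 0.06, edgeR adjusted p = 0.00149).

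XPC, the other damage sensor of nucleotide excision repair, had 39.6, 38 and 37 CPM against 41.4, 37.4 and 36.7, with a log2 fold change of 0.01 and a 95% interval of -0.11 to 0.12 (edgeR adjusted p = 0.924). XPC shares 318 exon bases with LSM3 on the other strand, which had 22611 reads against 9229 for XPC and rose by 0.67, so the XPC value is uncertain. ASCC3, a helicase of alkylation repair and of stalled ribosomes, had 0.11, with an interval of 0.00 to 0.21 (edgeR adjusted p = 0.0845). Its call appeared without labelled knockout replicate 2 (0.17, edgeR adjusted p = 0.00721) and with the length and GC trend removed (0.19, edgeR adjusted p = 0.00164). Leaving out any other single library gave no call (edgeR adjusted p = 0.121 to 0.272).

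The 3 metabolic and redox members with a row rose by similar amounts, where 22.0% of all tested genes rose. TP53I3, a quinone oxidoreductase also known as PIG3 (chr2:24077433-24084834), had 27.7, 30.9 and 30 CPM in the controls and 42, 43.8 and 37.7 in the others (log2 fold change 0.48, SE 0.06, edgeR adjusted p = 1.74e-06). FDXR, ferredoxin reductase, which feeds electrons to mitochondrial steroid and iron-sulfur cluster synthesis (chr17:74862497-74872994), had 11.5, 11.7 and 11.5 CPM against 16.5, 15.9 and 16.6 (0.49, SE 0.07, edgeR adjusted p = 9.04e-06). SESN1, sestrin 1, which restrains mTORC1 (chr6:108984309-109094846), had 13.7, 13.6 and 15.3 CPM against 18, 20.8 and 19.6 (0.46, SE 0.07, edgeR adjusted p = 3.09e-05). All 3 had groups that did not overlap. TIGAR, the fructose bisphosphatase that diverts glucose carbon toward the pentose phosphate pathway, is no member but lies beside them in function. It had 7.14, 7.94 and 7.77 CPM in the controls and 9.11, 8.75 and 8.78 in the others, and did not pass (0.22, SE 0.09, edgeR adjusted p = 0.0639).

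The largest difference of any member was the fall of TP53I11, also known as PIG11 (chr11:44932348-44951306, protein-coding), a membrane protein named for its induction by p53. It had 298, 303 and 264 reads in the controls and 22, 30 and 18 in the labelled knockout libraries, or 7.07, 7.34 and 6.61 CPM against 0.644, 0.696 and 0.444. The control mean was 11.7-fold higher (log2 fold change -3.55, SE 0.17, edgeR adjusted p = 6.91e-13). Only 110 of 16910 tested genes (0.651%) had a log2 fold change as low or lower. TRIM22, an interferon- and p53-inducible ubiquitin ligase (chr11:5689790-5710863), was low in both groups, with 72, 55 and 48 reads in the controls and 71, 120 and 119 in the others. In CPM this was 1.71, 1.33 and 1.2 against 2.08, 2.79 and 2.94 (log2 fold change 0.88, SE 0.20, edgeR adjusted p = 0.00101).

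Levels per length spanned a wide range. In the control libraries CCNG1 (103 CPM per kilobase of exon), PLK2 (30.9), TNFRSF10B (29.3) and TRIAP1 (24.1) were highest, and TP53I11 (0.954), TNFRSF10C (0.289) and TRIM22 (0.235) lowest. In the labelled knockout libraries PLK2 stood at 52.8 and TNFRSF10B at 25.1, behind TRIAP1 at 31.5 and CDKN1A at 27.1. TP53I11, at 0.081, became the lowest member.

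**Figure D3:**
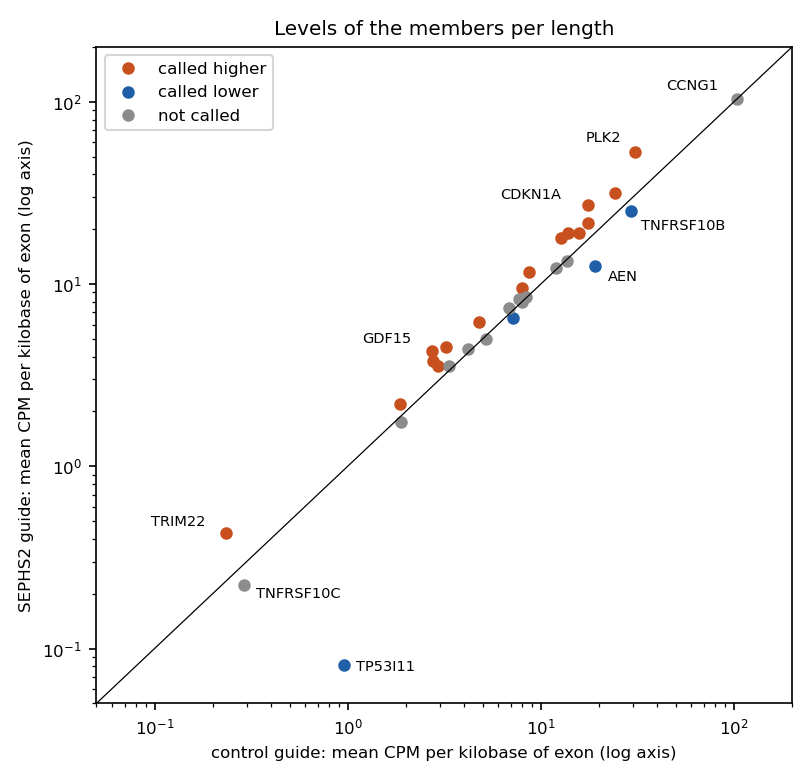
Each point is 1 member, with its mean CPM per kilobase of exon in the control libraries (horizontal, log axis) and in the SEPHS2 guide libraries (vertical, log axis), n = 3 each, and the line marks equal levels. CCNG1 lies on the line at 103, PLK2 and CDKN1A above it, AEN below it, and TP53I11 drops from 0.954 to 0.081.

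Of the 32 members, 23, 23 and 24 stood above their control mean in labelled knockout replicates 1, 2 and 3, with library medians of 0.21, 0.16 and 0.19 on the log2 scale. Over all tested genes, 49.9%, 51% and 49.5% stood above their control mean in the same libraries. Of the 20 called members, 18 kept the call and the direction under 15 alternatives, and ZMAT3 and EDA2R lost it as given above. The exons of 6 members (FAS, MDM2, POLH, TNFRSF10B, TP53I3 and XPC) overlap another gene with at least 100 reads. Leaving these members out, a choice made after the data were seen, 12 of 26 were higher and 3 lower. The shares over all tested genes were 22.0% and 23.4%.

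A wider set of p53 targets moved in both directions. The 58 further targets were named from general knowledge, with earlier results of these data known. Of the 49 tested, 15 rose, 8 fell and 26 did not pass, and their median on the log2 scale was 0.08. The 46.9% that passed lay close to the 45.4% of all tested genes. BAX, the pore-forming death effector, rose from 63.3 ± 2.12 to 104 ± 5.11 CPM (SD, n = 3 per group) (0.72, edgeR adjusted p = 8.62e-11), and RPS27L, a ribosomal protein paralog induced by p53, rose by the same 0.72. PMAIP1, the BH3-only protein NOXA, fell from 54.7 ± 2 to 36.9 ± 0.686 CPM (SD, n = 3 per group) (-0.57, edgeR adjusted p = 6.81e-09), and the cytokine LIF fell by 0.50 on the log2 scale. The points farthest to the right, SFN (1.72) and KITLG (1.11), were named after their values were seen. SFN, the cell cycle brake 14-3-3 sigma, had 30, 12 and 12 reads in the controls and 58, 62 and 49 in the others.

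Genes that control p53 moved in both directions, and their balance changed with the processing. Of 38 tested, 10 rose, 9 fell and 19 did not pass, with a median of -0.01. The 50% that passed stood beside 45.4% of all tested genes, 22.0% higher and 23.4% lower. With the length and GC trend removed, 18 rose and 5 fell, where 4118 of all tested genes rose and 3521 fell. HIPK2, a kinase that phosphorylates p53 for apoptosis, fell from 678 ± 20.1 to 396 ± 12.4 CPM (SD, n = 3 per group) (-0.78, edgeR adjusted p = 2.88e-12), and DYRK2, another p53 kinase, fell by 0.35 on the log2 scale. AURKA, which promotes p53 degradation, and CHEK1, a checkpoint kinase, rose by 0.57 and 0.38.

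Genes that p53 represses through p21 and the DREAM complex, which shuts off cell division genes, were higher, as was CDKN1A. Of 40 such genes, 39 rose, where 22.0% of all tested genes did. The median of the list was 0.45 on the log2 scale, and PRC1 at about 1 CPM did not pass (0.44, edgeR adjusted p = 0.136). MYBL2, CDC20, CCNB1 and CDK1 rose by 0.74, 0.67, 0.59 and 0.55. CHEK1 belongs to this list and to the previous one.

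**Figure D4:**
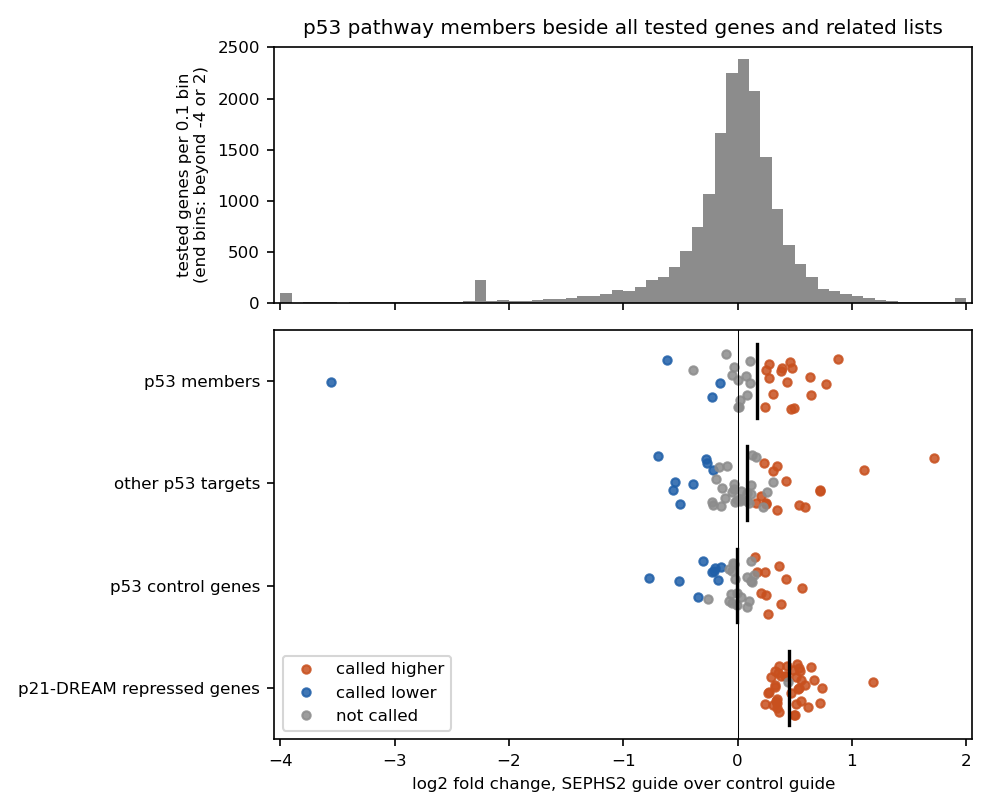
The upper panel counts all 16910 tested genes by log2 fold change, with values beyond -4 or 2 in the end bins. The narrow peak near -2.20 holds 210 genes whose counts are identical to each other. In the lower panel each point is 1 gene of a list and the vertical bar its median: 0.17 for the p53 members, 0.08 for other targets, -0.01 for control genes and 0.45 for the p21-DREAM repressed genes, which form a tight group to the right.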

How the data were processed

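RNA sequencing of 3 sgCTRL and 3 sgSEPHS2 libraries of A-375 cells was analysed. The authors deposited raw read counts, listed by gene symbol in 1 table. The build GRCh38 and the tools HISAT2 2.2.1, featureCounts 2.0.6, SAMtools 1.21 and FastQC 0.12.1 are named, without their settings, per the submitters' processing notes. Not given in the sources used here are the annotation, the strand setting and the handling of multi-mapping reads. Counts were fitted in R 4.3.3 with edgeR 4.0.16 (TMM factors, filterByExpr, quasi-likelihood, two-sided), and 4721 genes were filtered out. CPM used TMM-scaled library sizes. Exon lengths came from GENCODE release 29, and positions from RefSeq. Calls on 530 tested genes rest on counts identical to another gene's, no member among them. Keeping 1 of each set, 44.7% of genes passed.

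The members and lists were chosen with earlier results of these data known. Named are all members, with counts or CPM per library for those called at an absolute log2 fold change of at least 0.5 and for most others, and up to 4 genes with the smallest adjusted p from each further list. TIGAR was named for its role, PRC1, SFN and KITLG after their values were seen, genes that overlap a member beside it, and the relatives in the closing section from a list made after the data were seen. Alternatives were RLE and upper-quartile factors, 2 other filters, DESeq2 1.42.0, limma-voom (limma 3.58.1), a replicate block, removal of a length and GC trend (mgcv 1.9.3, values for 93.1% of tested genes), leaving out each library and an adjusted p under 0.01. 1 further gene is not reported here.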

Additional observations from a re-analysis of the deposited data

How the results depend on the processing

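Among the counts of the members, the further lists and all genes, the counts of p53 control genes were those that moved by over 1.5 times: 18 higher and 5 lower with the length and GC trend removed, against 10 and 9, and again 18 and 5 with the replicate block added to that trend. CCNG1 turned to -0.11 in both of these fits, and the cause was not tested. The median log2 fold change of the members was 0.23 with at least 1 CPM in 3 libraries, a filter that leaves out TNFRSF10C, and 0.16 to 0.21 with 1 library left out, against 0.17. In those left-out fits 15 to 17 members were higher and 3 to 4 lower. Over all genes 6339 to 7411 were called in these fits, against 7673. The promoter search found 3 members with at most 3 mismatches, against 1. Same-numbered libraries did not deviate together (correlations 0.00998, -0.0931 and -0.254), so the numbers are not taken as pairs. With the replicate block 16 members were higher and 4 lower, as without it, and 7774 genes were called, against 7673. Depth limits TNFRSF10C most, with 9 to 37 reads per library.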

Other observations

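Relatives of the members, listed after the data were seen, moved in both directions. Of 19 relatives, 17 were tested, of which 4 rose, 3 fell and 10 did not pass. Over all tested genes 45.4% passed, 22.0% higher and 23.4% lower. SESN3, a sestrin under FOXO control, fell from 10.2 ± 1.03 to 5.13 ± 0.376 CPM (SD, n = 3 per group) (edgeR adjusted p = 1.55e-07), while SESN1 rose and SESN2 had 0.16 (edgeR adjusted p = 0.0881). PHLDA1, a relative of PHLDA3, fell from 1680 ± 18 to 1034 ± 30.5 CPM (SD, n = 3 per group) (-0.70, edgeR adjusted p = 8.38e-12), and PHLDA3 did not pass. TP53INP2, an autophagy gene, fell by 0.35 on the log2 scale.

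The replicative subunit RRM2 rose by 0.72 and the p53-inducible RRM2B by 0.31. The mitotic kinases PLK1 and PLK4 rose by 0.36 and 0.55, beside 0.77 for PLK2. CDKN1B, the inhibitor p27, had -0.08 (edgeR adjusted p = 0.149), and CDKN1C, the inhibitor p57, rose by 0.28 (edgeR adjusted p = 0.0355). Differences between a member and its relative were not tested.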
